A study of Mus musculus with 6 samples.

Results

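The G1 cyclins and their kinases are 8 genes, namely the D cyclins *Ccnd1*, *Ccnd2* and *Ccnd3*, the E cyclins *Ccne1* and *Ccne2*, and the kinase genes *Cdk2*, *Cdk4* and *Cdk6*. They were taken by symbol from the 23420 genes of a raw count table, and all 8 passed the filter on low counts that left 13682 genes for testing. The libraries came from splenic B cells of mice on a C57Bl/6J background, 3 Ahr+/+ and 3 Ahr-/-, and asked how B cells without the aryl hydrocarbon receptor (AhR) respond to activation. The Ahr-/- mice (strain B6.129-Ahr tm1Bra/J) carry a null allele in every cell of the body, so the B cells had also developed without AhR, and mice of the study were over 8 weeks old. The cells of both genotypes were purified with a negative selection kit and were kept for 8 h in IMDM with 5% FCS, 10 μg/ml α-IgM to engage the B-cell receptor (BCR) and 20 ng/ml IL-4. FICZ, a ligand of AhR, was added at 250 nM 4 h before the end. No unstimulated library and no library without FICZ was analysed here, so every value describes activated, ligand-exposed cells. Normalised read counts below are counts divided by the TMM-scaled size of the library relative to the mean library, and a gene is called at an adjusted p-value under 0.05 from edgeR.

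Resting B cells sit in G0, and a BCR signal brings them into G1. D cyclins bind CDK4 and CDK6 and start the phosphorylation of RB proteins, which releases E2F factors, and E cyclins with CDK2 then complete that phosphorylation and fire the first replication origins. In mature B cells *Ccnd2* is known as the D cyclin that BCR signals induce early and *Ccnd3* as one that dividing and germinal centre B cells need, while *Ccnd1* is used mostly outside the lymphoid lineage.

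Total counts lay between 22095096 and 53648787 per library, both extremes being Ahr-/- libraries. *Cyp1a1*, a direct AhR target, had 4743 to 5404 counts in the Ahr+/+ libraries and 4 to 7 in the Ahr-/- libraries, and *Ahr* itself was lower in Ahr-/- cells by 0.52 on the log2 scale (adjusted p = 7.07e-06 from edgeR). The summed level of 9 B-cell markers was 101971 to 106992 normalised counts in Ahr+/+ and 119599 to 126900 in Ahr-/- libraries, so the labelled cell type was present in both genotypes. Of the 9 markers, edgeR called 5 higher and 1 lower in Ahr-/- libraries.

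Of the 8 genes, 1 was called, *Ccnd1*, which rose in Ahr-/- B cells. That share of 12.5% stands beside 17.9% of all tested genes called in the same comparison, so the set as a whole held no excess of calls. The other 7 genes differed by less than 1.3-fold between genotype means. The median log2 fold change of the 8 was 0.06 against 0.00 over all tested genes, with 5 values above and 3 below zero. The genotypes had no overlap in *Ccnd1*, *Ccne2* and *Cdk2*, which is 37.5% of the 8 against 33.5% of all tested genes.

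**Figure D1:**
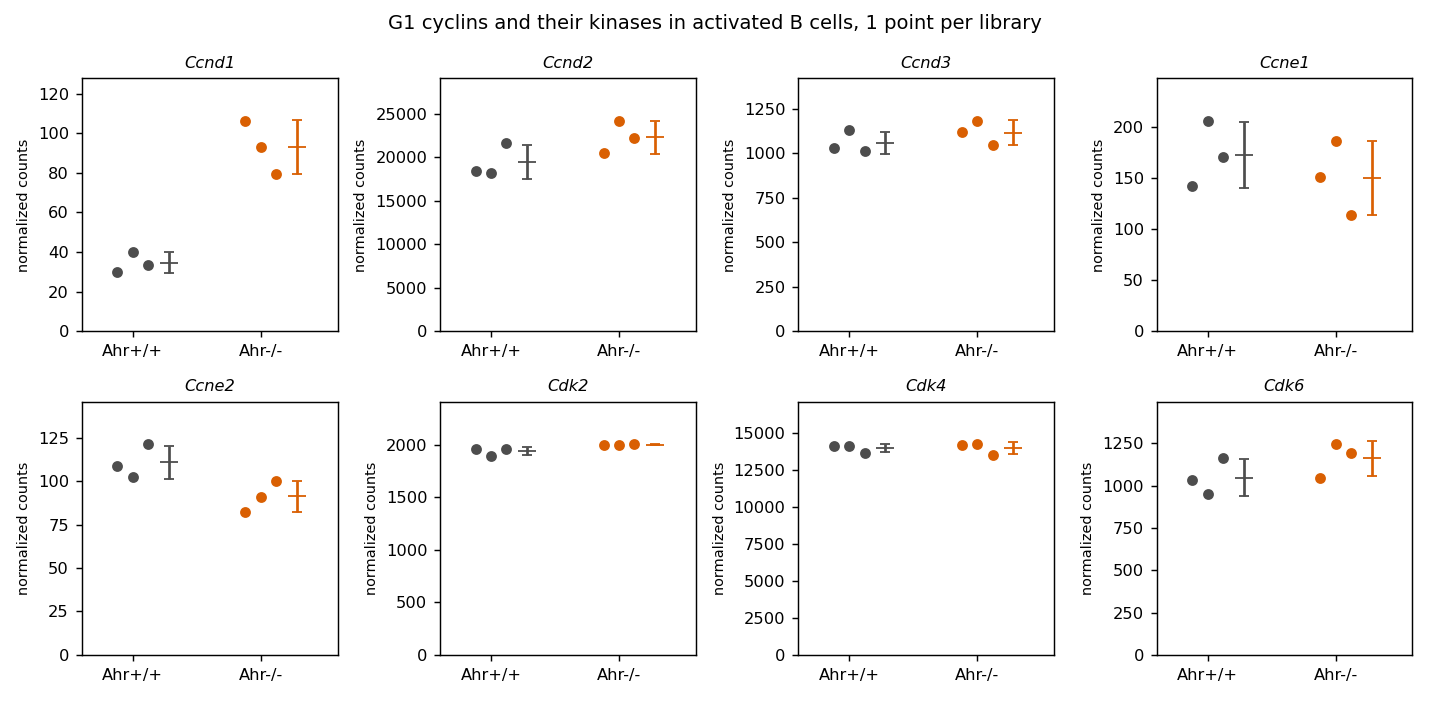
Normalised read counts (linear axes from 0, a panel for each gene) in the 3 Ahr+/+ (grey) and 3 Ahr-/- (orange) libraries, with a point for each library and the mean ± SD of each genotype beside it. *Ccnd1* is the gene with a wide gap between genotypes, from 30.1 to 40.2 in Ahr+/+ and from 79.3 to 106 in Ahr-/- libraries, while the other 7 genes lie close together.

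*Ccnd1* (cyclin D1) lies on chr7:144929931-144939925 of GRCm38, minus strand. It had 31, 40 and 30 reads in Ahr+/+ and 62, 131 and 87 in Ahr-/- libraries. After scaling these were 30.1, 40.2 and 33.7 normalised counts in Ahr+/+ and 106, 93.1 and 79.3 in Ahr-/- cells. The lowest Ahr-/- value thus stood well above the highest Ahr+/+ value, and the smallest Ahr-/- library, with 62 reads, gave the highest scaled level. The means of 34.7 ± 5.14 and 93.0 ± 13.5 (SD, n = 3 mice each) gave a ratio of 2.64 with a 95% interval from 1.98 to 3.53, which is 1.40 on the log2 scale with a standard error of 0.191 (edgeR, adjusted p = 2.17e-04). It ranked 563 of the 13682 tested genes by p-value. The two-sided exact permutation test gave p = 0.1, the smallest that 3 mice against 3 allow. The counts were few, and the coefficient of variation of 14.8% in Ahr+/+ and 14.6% in Ahr-/- libraries stood near the 17.2% and 10.4% that counting error alone gives. *Ccnd1* was called at 0.05 in 14 of 14 alternative fits (1 of them a larger prior count, which leaves p-values as they are), with log2 fold changes from 1.3 to 1.52.

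In these bulk libraries a change in the number of cells of a type and a change in RNA per cell cannot be told apart, and markers of other cells moved with *Ccnd1*. Of 8 markers of plasmacytoid dendritic cells, 7 rose in Ahr-/- libraries, and their summed level was 3583 to 4135 normalised counts in Ahr+/+ and 4730 to 5792 in Ahr-/- libraries. *Siglech*, 1 of these markers, had 52.3 to 60.6 normalised counts in Ahr+/+ and 236 to 300.4 in Ahr-/- libraries (log2 fold change 2.23, adjusted p = 2.11e-07 from edgeR). Both genes were highest in Ahr-/- replicate 1, while among Ahr-/- libraries *Ccnd1* was lowest in replicate 3 and *Siglech* in replicate 2. *Bst2*, the most abundant of the 8 and the one that was not called, made up much of the sum, and without it the sum was 1653 to 1797 in Ahr+/+ and 2659 to 2794 in Ahr-/- libraries. Of 8 markers of conventional dendritic cells, 4 rose (*Itgax*, *Clec9a*, *Clec10a* and *Cd209a*, with log2 fold changes from 1.06 to 2.52) and the most abundant, *Zbtb46*, fell by 0.40. Their sums were 820 to 937 and 882 to 1073, or 284 to 357 and 458 to 636 without *Zbtb46*. Of 5 NK-cell markers 2 rose, with sums of 172 to 266 and 270 to 406. Of 10 macrophage and monocyte markers, *Emr1* fell and none rose by edgeR, which gave 5 with an unadjusted p under 0.05. Their sums were 1266 to 1677 and 743 to 1313, but without *Emr1* 612 to 1015 and 708 to 1250, and the median log2 fold change of the 10 was 0.55. Of 7 T-cell markers tested 1 fell, and of 5 neutrophil markers none was called by edgeR or had an unadjusted p under 0.05. Among 5 stromal and endothelial markers tested, 1 fell, *Col3a1* was at 0 in all 6 libraries, and *Col1a1* and *Col1a2* had at most 2 counts in any. Within the B lineage, 1 of 6 B-1 markers rose, *Cd5* (log2 fold change 1.35), and 4 fell, with sums of 5361 to 5865 in Ahr+/+ and 3975 to 4579 in Ahr-/- libraries, while 3 of 6 marginal-zone markers rose and 2 fell, with sums of 44264 to 48344 and 44370 to 49084. The sums without a single gene were added after the data were seen, and the gene left out was each time one that fell or was not called. That choice leans these sums towards a rise in Ahr-/- libraries. Most of the plasmacytoid sum without *Bst2* was *Pacsin1*, with 1172 to 1353 normalised counts in Ahr+/+ and 1656 to 1740 in Ahr-/- libraries. The part of other cells in the *Ccnd1* difference was not tested.

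**Figure D2:**
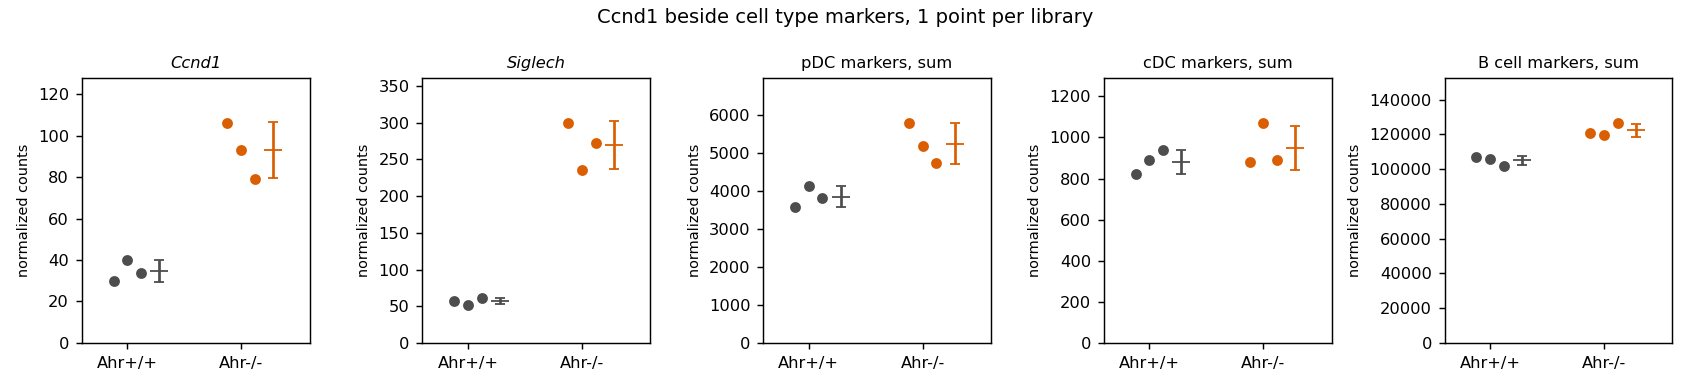
Normalised read counts (linear axes from 0) of *Ccnd1*, of *Siglech* and of the summed markers of plasmacytoid (pDC) and conventional (cDC) dendritic cells and B cells, with a point for each library and the mean ± SD of each genotype. *Ccnd1*, *Siglech*, the B-cell sum and the sum of the 8 plasmacytoid dendritic cell markers (3583 to 4135 in Ahr+/+ and 4730 to 5792 in Ahr-/-) are higher in all 3 Ahr-/- libraries, while the cDC sums, to which *Zbtb46* contributes most, overlap.

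Of the 4709 annotated exon bases of *Ccnd1*, 1100 are shared with *Oraov1* (also named LTO1), which is read from the opposite strand. The library kit keeps strand, but whether counting used it is not stated in the sources used here. *Oraov1* had 676, 641 and 612 normalised counts in Ahr+/+ and 649, 640 and 652 in Ahr-/- cells, with the genotypes overlapping (log2 fold change 0.01, 95% interval from −0.12 to 0.13, adjusted p = 0.957 from edgeR). Reads within the shared bases were not counted separately, and their part in the *Ccnd1* counts was not tested. The genes whose log2 CPM ran most like that of *Ccnd1* over the 6 libraries, out of 11832 compared, were *Them6* (Pearson r = 0.999), *Kmo* (r = 0.998) and *Sla* (r = 0.998). *Kmo* encodes kynurenine 3-monooxygenase, and *Sla* an adaptor that dampens antigen receptor signals. These r values are descriptive, because the 6 points split into 2 genotypes and each gene was higher in Ahr-/- cells, with log2 fold changes of 0.32, 0.61 and 1.03.

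*Ccnd2* (cyclin D2; chr6:127125162-127152193, minus strand) was by far the most abundant of the 3 D cyclins. Normalised counts were 18410, 18226 and 21674 in Ahr+/+ and 20431, 24217 and 22203 in the Ahr-/- libraries. Ahr+/+ replicate 3 lay above Ahr-/- replicate 1, so the genotypes overlapped. The means of 19437 ± 1940 and 22284 ± 1895 (SD, n = 3 mice each) gave a ratio of 1.15, with a 95% interval from 1.03 to 1.27, but did not pass the threshold over all genes (log2 fold change 0.20, standard error 0.0694, adjusted p = 0.0708 from edgeR). The coefficient of variation between Ahr+/+ mice was 9.98%, where counting error alone gives 0.73%. The call depended on the fit. Without Ahr+/+ replicate 3 the log2 fold change was 0.28 (adjusted p = 0.0119 from edgeR) and without Ahr-/- replicate 1 it was 0.26 (adjusted p = 0.0258 from edgeR), and *Ccnd2* was called in 5 of 14 alternative fits in all. In the other direction it was 0.13 without Ahr-/- replicate 2 (adjusted p = 0.292 from edgeR), 0.15 without Ahr+/+ replicate 2 and 0.16 without Ahr+/+ replicate 1, and adjusted p-values were 0.272 from the DESeq2 Wald test and 0.218 from a robust edgeR fit. *Ccnd2* shares 372 and 368 of its exon bases with the opposite-strand antisense genes *Gm43126* and *9330179D12Rik*, of which the latter had at most 17 counts in any library.

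*Ccnd3* (cyclin D3; chr17:47505051-47599691, plus strand) had 1031, 1132 and 1016 normalised counts in Ahr+/+ and 1119, 1185 and 1047 in Ahr-/- cells. These ranges overlapped. The means were 1060 ± 63.0 and 1117 ± 69.2 (SD, n = 3 mice each), and the ratio of 1.06 had a 95% interval from 0.962 to 1.16 (log2 fold change 0.08, adjusted p = 0.445 from edgeR). Levels above 1.16 or below 0.962 of the Ahr+/+ mean thus lay outside the interval. Leaving out single libraries moved the log2 fold change of *Ccnd3* between 0.03 and 0.13, without a call. *Ccnd3* shares 361 of 8775 exon bases with *Bysl* on the opposite strand, a more abundant gene with 5346 to 5602 and 5176 to 5419 normalised counts.

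The makeup of the D cyclin pool was set by *Ccnd2* in both genotypes. Per kilobase of annotated exon, *Ccnd2* made up 94.1% ± 0.783 of the D cyclin reads in Ahr+/+ and 94.1% ± 0.532 in Ahr-/- cells (SD, n = 3 mice each). *Ccnd3* gave 5.55% ± 0.727 and 5.07% ± 0.373. *Ccnd1* gave 0.338% ± 0.0643 and 0.791% ± 0.160, so its share remained under 1% in each Ahr-/- library, with 0.973% as the highest. These shares depend on the length used, since the annotated exons of *Ccnd3* cover 8775 bases and its longest coding transcript 2113. Over the longest coding transcript, a scale added after the data were seen, *Ccnd2* gave 85.7% and *Ccnd3* 14.1% in Ahr+/+ cells.

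**Figure D3:**
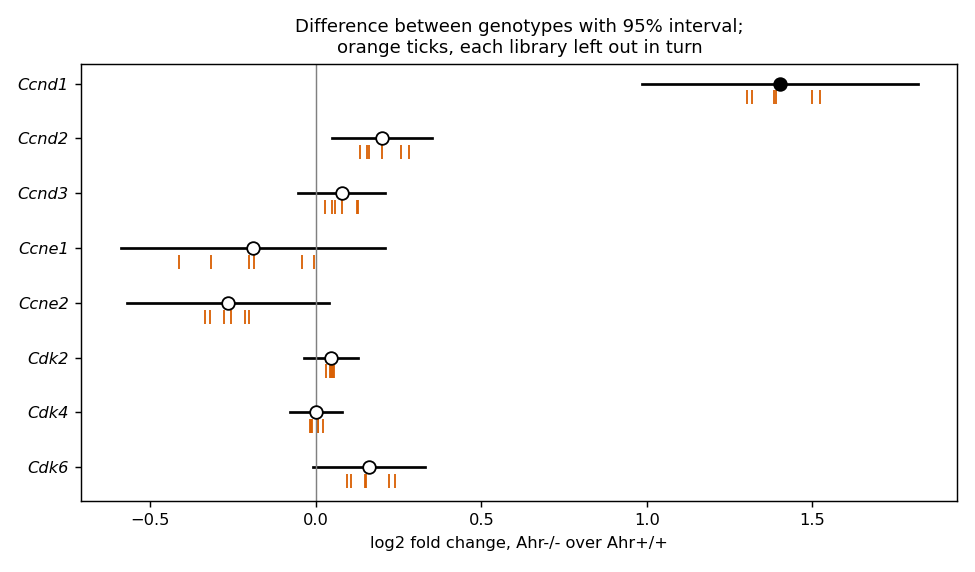
Log2 fold change of Ahr-/- against Ahr+/+ for each of the 8 genes (circles, filled where called), with the 95% interval from the edgeR fit (black bars), the values with each library left out in turn (orange ticks) and a grey line at no difference. The interval of *Ccnd1* runs from 0.985 to 1.82, *Ccnd2* has the other interval that lies above zero, and the 2 E cyclins have negative estimates with intervals across zero.

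*Cdk4* encodes a kinase partner of the D cyclins and lies on chr10:127063534-127067920, plus strand. Its fold change was the nearest to zero of the 8 genes. Its normalised counts were 14126, 14154 and 13649 in the Ahr+/+ and 14177, 14242 and 13490 in the Ahr-/- libraries. The ranges overlapped almost entirely. Means were 13976 ± 284 and 13970 ± 417 (SD, n = 3 mice each), and the ratio of 0.999 had a 95% interval from 0.946 to 1.06 (adjusted p = 0.99 from edgeR). *Cdk4* shares 641 of 3249 exon bases with *Tspan31* on the opposite strand, which did not pass the test either, with 1108 to 1215 and 1116 to 1282 normalised counts.

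Promoter windows were searched because AhR binds the letters GCGTG and because Myc and E2F factors act on genes of this set. RefSeq windows on GRCm38.p6, from 250 bases before to 50 after the start, were matched for 5 of the 8 genes, *Ccnd3*, *Ccne1*, *Cdk2*, *Cdk4* and *Cdk6*, in 6 windows (*Ccnd3* has 2 windows), and *Ccnd1*, *Ccnd2* and *Ccne2* were not searched. The letters GCGTG (the core of the dioxin response element), TTGCGTG (an extended AhR form), TTTCGCGC and TTTGGCGC (both E2F forms), CACGTG (E-box), TGACTCA (AP-1) and TGACGTCA (CRE) were counted on both strands. No match overlapped another. The window of *Cdk4* held 4 CACGTG, starting 172, 118, 98 and 11 bases before the start, where 7.15% of 32851 windows hold any and 8 of them (0.0244%) hold 4 or more. The window of *Ccne1* held 3 GCGTG, all read on the other strand as CACGC, where 32.4% of windows hold any and 3.91% hold 3 or more. Bases before the first annotated exon are printed for the 2 of these 5 genes with the most matches, with the matches in capitals. For *Ccne1* they are the first 206 bases of the window, and the bases from there to the RefSeq start are not printed.
Cdk4, chr10:127063285-127063533, plus strand: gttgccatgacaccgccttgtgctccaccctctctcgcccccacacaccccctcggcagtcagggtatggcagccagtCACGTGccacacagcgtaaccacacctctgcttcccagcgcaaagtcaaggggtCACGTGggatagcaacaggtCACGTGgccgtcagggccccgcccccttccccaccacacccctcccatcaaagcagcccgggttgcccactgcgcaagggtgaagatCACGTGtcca
Ccne1, chr7:38107535-38107740, minus strand: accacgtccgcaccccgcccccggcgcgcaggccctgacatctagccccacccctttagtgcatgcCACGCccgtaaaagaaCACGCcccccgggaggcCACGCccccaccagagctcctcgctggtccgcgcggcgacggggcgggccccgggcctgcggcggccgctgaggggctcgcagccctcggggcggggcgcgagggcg
The window of *Cdk6* held 1 GCGTG and 1 CACGTG, 1 of the *Ccnd3* windows held 1 GCGTG, and the window of *Cdk2* held none of these letters. Of the 5 genes searched none was called in the comparison of genotypes by edgeR or had an unadjusted p under 0.05, and *Ccnd1*, which was called, was not among them. A match is a description of letters and shows no binding.

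*Cdk6*, the other D cyclin kinase gene (chr5:3341485-3531008, plus strand), had 1032, 951 and 1164 normalised counts in Ahr+/+ and 1047, 1245 and 1193 in Ahr-/- cells. The lowest Ahr-/- library lay within the Ahr+/+ range. Its means of 1049 ± 107 and 1162 ± 103 (SD, n = 3 mice each) gave a ratio of 1.12 with a 95% interval from 0.995 to 1.26 (log2 fold change 0.16, adjusted p = 0.191 from edgeR). When single libraries were left out, the log2 fold change ran from 0.09 to 0.24, without a call (adjusted p from 0.0671 to 0.537 from edgeR). Per kilobase of exon, *Cdk4* made up 98.3% ± 0.207 of the reads of both kinases in Ahr+/+ and 98.1% ± 0.182 in Ahr-/- cells, so *Cdk6* was the minor transcript in each library. *Cdk6* shares 368 of 13989 exon bases with the opposite-strand antisense gene *Gm17590*. Without a length correction the share of *Cdk4* in Ahr+/+ cells was 93.0%, as *Cdk6* has the longer mRNA.

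*Ccne1* (cyclin E1; chr7:38097984-38107534, minus strand) had 142, 206 and 171 normalised counts in Ahr+/+ and 151, 186 and 114 in Ahr-/- libraries. The genotypes overlapped widely. With means of 173 ± 32.3 and 150 ± 36.1 (SD, n = 3 mice each) the ratio was 0.877 and its 95% interval ran from 0.665 to 1.16 (log2 fold change −0.19, adjusted p = 0.547 from edgeR). The coefficients of variation of 18.7% and 24.0% stood beside the 7.72% and 7.95% that counting error alone gives. Leaving out single libraries moved the log2 fold change between −0.41 and −0.01.

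*Ccne2* (cyclin E2; chr4:11191351-11204779, plus strand) had 109, 103 and 121 normalised counts in Ahr+/+ and 82.4, 91.0 and 100.3 in Ahr-/- libraries. All 3 Ahr-/- values lay below all 3 Ahr+/+ values, by a gap of little more than 2 normalised counts (two-sided exact permutation p = 0.1, the smallest possible here). The means of 111 ± 9.51 and 91.2 ± 8.96 (SD, n = 3 mice each) gave a ratio of 0.832 with a 95% interval from 0.673 to 1.03, and the gene was not called (log2 fold change −0.27, adjusted p = 0.236 from edgeR). Its estimate stayed between −0.34 and −0.20 when single libraries were left out. *Ccne2* shares 609 of 3495 exon bases with the opposite-strand gene *Ints8*, which had 2804 to 3101 and 2870 to 3009 normalised counts and is the far more abundant of the pair. *Ccne1* made up 66.8% ± 4.99 of the E cyclin reads per kilobase in Ahr+/+ and 67.8% ± 6.96 in Ahr-/- cells (SD, n = 3 mice each), so the balance of the E cyclins differed by less than the spread between mice.

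*Cdk2*, the kinase gene of the E cyclins (chr10:128697939-128705031, minus strand), had 1961, 1897 and 1961 normalised counts in Ahr+/+ and 1996, 2003 and 2005 in Ahr-/- libraries. The genotypes did not overlap, but the difference was small (two-sided exact permutation p = 0.1). Means were 1939 ± 37.2 and 2001 ± 4.63 (SD, n = 3 mice each), a ratio of 1.03 with a 95% interval from 0.976 to 1.09 (log2 fold change 0.05, adjusted p = 0.464 from edgeR). *Cdk2* shares 34 of 6219 exon bases with *Pmel* on the opposite strand, which had at most 19 counts in any library. *Cdk4* and *Cdk2* had the narrowest intervals of the 8 genes.

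Levels of different genes were compared per kilobase of annotated exon. In Ahr+/+ cells the order was *Cdk4* with 4302 ± 87.5 normalised counts per kilobase, *Ccnd2* with 2066 ± 206, *Cdk2* with 312 ± 5.98, *Ccnd3* with 121 ± 7.18, *Cdk6* with 75.0 ± 7.68, *Ccne1* with 65.0 ± 12.1, *Ccne2* with 31.7 ± 2.72 and *Ccnd1* with 7.37 ± 1.09 (SD, n = 3 mice). The libraries of *Cdk6* (68.0 to 83.2) and *Ccne1* (53.3 to 77.5) overlapped, so these neighbours did not differ beyond their spread, while no other neighbours in the order overlapped. The order of the means was the same in Ahr-/- cells, where *Ccnd1* reached 19.7 ± 2.88 and *Ccne2* had 26.1 ± 2.56. On this scale *Ccnd1* thus remained the lowest of the 8 genes in the genotype in which it was higher. Levels and their order depend on the length used. Without a length, *Ccnd1* had an Ahr-/- mean of 93.0 normalised counts, above 91.2 for *Ccne2*, and in Ahr+/+ cells *Ccnd2* (19437) stood above *Cdk4* (13976). Over the longest coding transcript the Ahr+/+ means per kilobase were 806 for *Cdk2* and 501 for *Ccnd3*. By the mean per kilobase over all 6 libraries, both genotypes pooled, *Cdk4* stood at percentile 97.3 of the 12823 tested genes with a length, *Ccnd2* at 93.6 and *Cdk2* at 60.4, whereas *Ccne1*, *Ccne2* and *Ccnd1* stood at 35.1, 28.5 and 23.0.

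**Figure D4:**
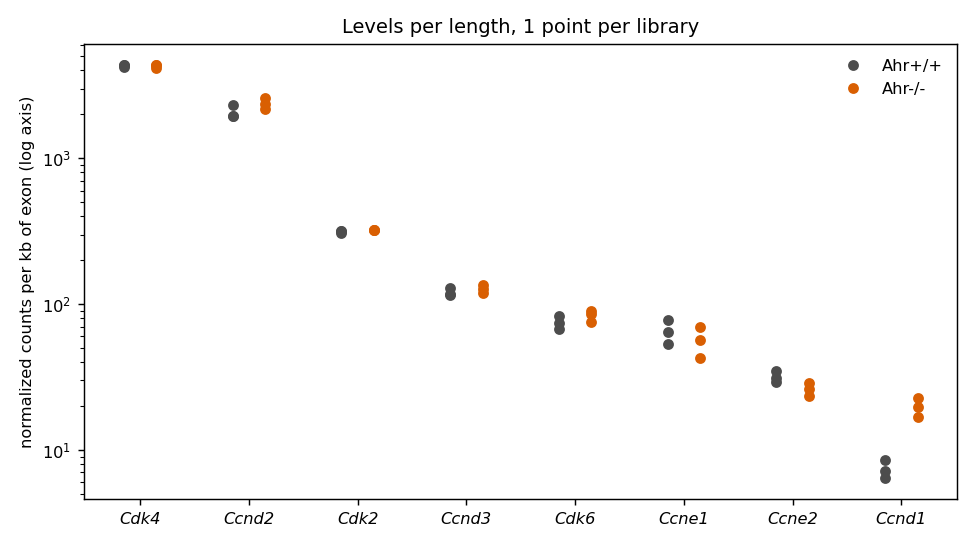
Normalised read counts per kilobase of annotated exon (log axis) for the 8 genes, with points for the 3 Ahr+/+ (grey) and 3 Ahr-/- (orange) libraries. *Cdk4* and *Ccnd2* lie above 1900 in all 6 libraries and *Ccnd1* lies lowest in both genotypes, at 6.39 to 8.55 in Ahr+/+ and 16.8 to 22.6 in Ahr-/-.

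The rest of the pathway was read from 8 lists of inhibitors, targets, regulators and relatives, which hold 106 genes counted once. Of the 103 that were tested, 13 rose and 11 fell in Ahr-/- cells, or 23.3% against 17.9% of all tested genes, with a median log2 fold change of 0.00. Each of the 13 that rose did so by at most 0.40 on the log2 scale, and the value of 1.40 for *Ccnd1* was above all of them. Of the 7 genes for CDK inhibitors, the proteins that hold cyclin–CDK complexes inactive, none was called by edgeR or by the DESeq2 Wald test, and 2 had an unadjusted p under 0.05. Their median log2 fold change was −0.16. *Cdkn1b*, which encodes p27, had 1090, 1094 and 1025 normalised counts in Ahr+/+ and 1009, 945 and 930 in Ahr-/- cells, values without overlap (log2 fold change −0.16, adjusted p = 0.055 from edgeR). It was called in 3 of the 14 alternative fits, with DESeq2 size factors, with a robust fit and without Ahr-/- replicate 1, with adjusted p-values from 0.0376 to 0.192 over the 14.

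Among 13 RB, E2F and DP genes, the direct targets and partners downstream of these kinases, 3 rose and none fell, with a median log2 fold change of 0.15 and 4 genes at an unadjusted p under 0.05 by edgeR. These were *E2f6*, a repressor of the family (0.33, adjusted p = 1.88e-04 from edgeR), *E2f3* (0.24) and *Tfdp1*, a DP partner (0.16). Of 7 genes for CDK activation and assembly, 2 rose, namely *Cdc25a*, the phosphatase that removes inhibitory phosphates from CDK2 (0.34, adjusted p = 9.62e-04 from edgeR), and *Mnat1* of the CDK-activating kinase (0.23). The other two called were the chaperone genes *Hsp90ab1* and *Hsp90aa1*, which fell by 0.22 and 0.21 on the log2 scale and whose products fold CDK4. Of 12 genes for turnover of cyclins and inhibitors, 3 rose and none fell, and these were the F-box genes *Fbxo4* (0.31) and *Fbxw7* (0.23), whose products are known for targeting cyclin D1 and cyclin E for destruction, and *Cks2* (0.23). The median of that list was 0.05, and 5 of its genes had an unadjusted p under 0.05 by edgeR.

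Of 13 genes for transcription factors known to act on G1 cyclin genes, 2 rose and 4 fell, with a median log2 fold change of 0.08. *Stat5a*, which acts on *Ccnd2* in lymphocytes, rose by 0.31 (adjusted p = 7.16e-04 from edgeR) and *Nfkb1* by 0.20. *Junb*, which is known to restrain *Ccnd1* in other cells, went from 6954 ± 214 to 3122 ± 150 normalised counts (SD, n = 3 mice each) and thus fell by 1.15 on the log2 scale (adjusted p = 2.57e-09 from edgeR). *Fos* fell by 0.64 and *Stat6*, the IL-4 signal transducer, by 0.14. *Rela* fell by 0.15 (adjusted p = 0.0485 from edgeR), but lost its call in 8 of the 14 alternative fits, among them library size alone, the replicate block and 5 of the 6 fits without a single library. *Myc* had 21593 to 22008 normalised counts in Ahr+/+ and 22699 to 23510 in Ahr-/- cells, without overlap and without a call (log2 fold change 0.08, adjusted p = 0.129 from edgeR), though it was called with library size alone (adjusted p = 0.0402 from edgeR).

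Of 20 genes induced at the G1/S border, 2 rose, *Uhrf1* (0.40, adjusted p = 7.43e-04 from edgeR) and the helicase subunit gene *Mcm6* (0.27), and the licensing factor gene *Cdt1* fell by 0.20, with a list median of 0.03. *Ccna2*, the S-phase cyclin, had 222 ± 46.4 and 217 ± 37.5 normalised counts (SD, n = 3 mice each; log2 fold change −0.02, adjusted p = 0.95 from edgeR). Of 19 other cyclin genes tested, none rose and 2 fell, with a median of −0.02 and 5 genes at an unadjusted p under 0.05 by edgeR. *Ccno*, the gene for cyclin O, had 107, 109 and 88 reads in Ahr+/+ and 1, 0 and 1 in Ahr-/- cells, and *Ccnt1*, a subunit of the elongation factor P-TEFb, fell by 0.29 on the log2 scale. *Ccna1* and *Ccnb3* were at 0 in all 6 libraries. Of 15 other CDK genes tested, *Cdk5* rose (0.19) and *Cdk11b* (−0.20) and *Cdk12* (−0.13) fell, with a median of −0.02, and the mitotic kinase gene *Cdk1* had 114 ± 27.2 and 123 ± 16.3 normalised counts (SD, n = 3 mice each; log2 fold change 0.12, adjusted p = 0.727 from edgeR). Of the 24 calls in these lists, 16 held at 0.05 in each of the 14 alternative fits and 8 did not, while 12 genes that were not called, *Myc* and *Cdkn1b* among them, were called in at least 1. *Fos*, *Stat6* and *Cks2* lost their call without Ahr-/- replicate 2 alone (adjusted p = 0.0798, 0.0799 and 0.068 from edgeR). *Tfdp1* and *Mnat1* lost theirs in 4 of the fits, *Cdk12* in 5, *Cdk5* in 7 and *Rela* in 8, with adjusted p-values up to 0.159, 0.123, 0.128, 0.12 and 0.19 in that order.

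**Figure D5:**
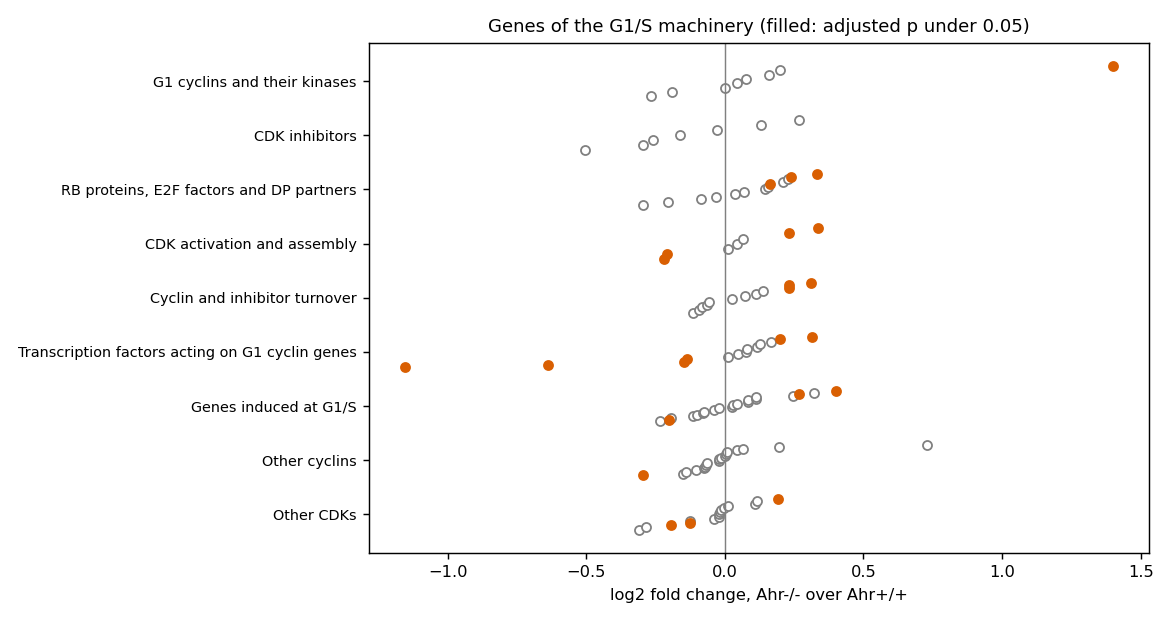
Log2 fold change of Ahr-/- against Ahr+/+ for the tested genes of the 8 other lists and of the 8 G1 cyclin and kinase genes, with a circle for each gene, filled orange where called and spread within its list by rank. Most points lie near zero, *Junb* at −1.15 and *Ccnd1* at 1.40 stand apart in opposite directions, and *Ccno*, at 0 or 1 read in each Ahr-/- library, is not drawn.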

How the data were processed

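Poly(A) RNA from 6 cultures of activated splenic B cells, described in the labels as 3 replicates per genotype and by the study as 3 mice, was sequenced from stranded libraries. The authors deposited raw counts of reads per gene, with no normalization. TopHat2, HTSeq, DESeq and build mm10 are named in the submitters' processing notes, and the strand setting of the counting is not given in the sources used here. The deposited normalized counts and the table of the authors' own comparison (fold changes and p-values) were not used, and no column of the count table was left out. A gene needed 10 counts in sum over all 6 libraries to be tested, with edgeR 4.0.16 (limma 3.58.1, R 4.3.3) by the quasi-likelihood test after TMM scaling, genotype being the one term, with Benjamini-Hochberg adjustment over all tested genes. The common dispersion came to a biological coefficient of variation of 0.0476. The self-test of the fit was made on simulated data. Intervals are 95% intervals from the fit. Whether replicate numbers pair mice is not stated in the sources used here. Alternatives were DESeq2 1.42.0 (Wald test, and its size factors in edgeR), scaling by library size alone, omission of the filter, a filter of 10 counts in each of 3 or more libraries, a robust fit, a replicate block, a prior count of 2 in place of 0.125 and leaving out each library, which make 14 fits, and besides these a threshold of 0.01.

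Exon lengths and positions came from the GRCm38 annotation (GENCODE M21), which matches mm10, and promoter windows from RefSeq. The genes and lists were chosen with earlier results of these data known. Named were the 8 genes, *Ahr* and *Cyp1a1*, every called gene of the pathway lists (up to 4 per list and direction), *Cdkn1b*, *Ccno*, *Myc*, *Ccna2* and *Cdk1* whether called or not, the 3 genes most like *Ccnd1*, genes that overlap a member on the other strand, and markers that moved with *Ccnd1*. Of 5 plasma-cell markers 2 rose and 2 fell (sums of 32684 to 36365 normalised counts in Ahr+/+ and 34937 to 35954 in Ahr-/- libraries), and of 2 erythroid markers tested none was called by edgeR or had an unadjusted p under 0.05, with *Hba-a1* and *Hba-a2* at 0.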

Additional observations from a re-analysis of the deposited data

How the results depend on the processing

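The number of the 8 genes called was 1, and it was 2, by the addition of *Ccnd2*, with library size alone, with no filter and with a replicate block. Leaving out single libraries gave 1 to 2, the 2 arising without Ahr+/+ replicate 3 or Ahr-/- replicate 1. *Ccnd2* then had log2 fold changes of 0.22 (library size alone), 0.20 (no filter; replicate block), 0.28 and 0.26, with adjusted p-values from edgeR of 0.0456, 0.0205, 0.0469, 0.0119 and 0.0258. *Cdk4* changed sign around zero, with 0.0245 under library size alone, 2e-04 with at least 10 counts in at least 3 libraries, and 0.0066, 0.0076 and 0.022 without Ahr+/+ replicate 1, Ahr+/+ replicate 2 and Ahr-/- replicate 3, the range over left-out libraries being −0.0188 to 0.022. No other sign changed among the 8 genes. Same-numbered libraries had correlations of −0.101, 0.189 and −0.122 of their deviations from the genotype mean, and the other pairs had −0.276 to 0.306. With 3 libraries per genotype these values cannot decide whether replicate numbers pair the mice. The share of *Ccnd2* in the D cyclins of Ahr+/+ cells was 94.1%, or 85.7% over the longest coding transcript, and that of *Cdk4* was 98.3%, or 98.7% and, without a length, 93.0%. Over all tested genes 2453 were called, 1473 at 0.01 and 1664 to 2601 without single libraries. CDK inhibitors went from 0 called to 1 with DESeq2 size factors or a robust fit (0 to 1 without single libraries), the gene being *Cdkn1b*, or *Cdkn1a* without Ahr+/+ replicate 3. Other cyclins went from 2 to 4 with a robust fit (2 to 4). At 0.01 the turnover list went from 3 to 1, other CDKs from 3 to 1 and transcription factors from 6 to 3. Without single libraries these gave 2 to 4, 1 to 4 and 3 to 6, and the G1/S list 3 to 5. The causes were not tested. Medians over all genes lay between −0.00 and 0.03 under the 3 scalings. *Ccnd1*, *Ccne1* and *Ccne2* had the fewest reads and the widest intervals, and in *Ccnd1* the spread between mice was near counting error.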
